A study of Mus musculus with 39 samples.

Results

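Somatic cell nuclear transfer (SCNT) places the nucleus of a differentiated cell into an enucleated oocyte, and the transcripts described here are those that were high in the donor cells and were also higher in cloned than in fertilized 2-cell embryos. The donors were mouse cumulus cells, the somatic cells that surround the ovulated oocyte and help it to mature through secreted matrix, hormones and metabolites. An array probe was a member if its mean level in Cumulus exceeded that in IVF embryos and in oocytes (OC) by at least 3 on the log2 scale (8-fold), its mean in SCNT embryos without TSA exceeded that in IVF embryos by at least 1.5, and its signal was well above background on all 8 of those SCNT arrays. Of 41174 probes, 2774 were high in Cumulus, 559 of these were also higher in SCNT embryos, 425 met every criterion, and the 200 with the largest SCNT minus IVF difference were kept. Gene symbols were available for 136 member probes, which named 121 genes, and 64 members had only an accession. The levels of Cumulus, OC, IVF and TSA(–) arrays chose the members, so differences among these 4 groups are given below as a description and without a test. Tests were run on TSA(+) and Spi-C embryos, which the choice did not use, although the groups they were compared with were used by it.

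All mice were (B6xDBA/2)F1. OC (n = 7 arrays) were metaphase II oocytes, IVF (n = 6) were 2-cell embryos made by in vitro fertilization, and TSA(–) (n = 8) were cumulus-derived SCNT embryos that received no trichostatin A. TSA(+) (n = 6) were SCNT embryos given 5 nM trichostatin A, an inhibitor of histone deacetylases, for 8 h from activation. Spi-C NT embryos were SCNT embryos into which mRNA for Spi-C, an Ets-family transcription factor, was injected at the pronuclear stage at 1.0 mg/ml (n = 4) or 0.1 mg/ml (n = 4), and their labels name no TSA. Embryos were cultured for 24 h, each array measured RNA pooled from 10 oocytes or embryos or, for Cumulus (n = 4), from a larger pool of cells, and RNA went through a double round of linear amplification. Levels are log2 intensities minus the 75th percentile of the array, so that a level of 0 equals that percentile. Since RNA was pooled and scaled per array, less RNA per embryo and fewer embryos with the RNA cannot be told apart.

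After fertilization the mouse embryo degrades maternal RNA and starts its own transcription, chiefly at the 2-cell stage. In SCNT embryos the donor nucleus arrives with an active somatic programme, which has to be silenced while the embryonic programme starts. RNA of donor-cell genes can then reach the 2-cell stage by carry-over or by continued transcription, and array levels at 1 time point cannot tell these apart.

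Between 48.6% and 77.5% of probes per array were well above background. OC, IVF, TSA(–) and TSA(+) arrays lay on other slides and an older scanner model than the Cumulus and Spi-C arrays, so that differences across these sets and the scanner cannot be told apart. The Cumulus arrays carried the donor-cell markers Inha (level 5.67 to 6.06), Tnfaip6 (5.66 to 6.32), Ptgs2 (3.08 to 3.72) and Ptx3 (1.56 to 3.08), whereas Foxl2, a transcription factor of granulosa cells, was at -5.85 to -5.70 and no brighter than in OC, and Amh was not well above background there. Has2, of cumulus expansion, overlapped between Cumulus (0.25 to 1.78) and OC (-0.36 to 1.73), although 14 of 18 measured genes of that list were high in Cumulus. Cyp19a1 was at 0.22 to 2.46 in Cumulus and at 7.46 to 8.94 in OC. Of 8 measured endothelial markers, 1 was high in Cumulus, Cdh5, at 1.24 to 1.91. Of 11 measured leukocyte markers, 7 were high in Cumulus. The summed linear level of the list was 31.6 to 118.1 in Cumulus, 0.761 to 1.19 in TSA(–) and 1.17 to 1.49 in IVF. Ptprc and Adgre1, which define leukocytes and macrophages, were well above background on all 4 Cumulus arrays and on 2 and 3 of 8 TSA(–) arrays. For IVF this held on 4 and 0 of 6 arrays, and for OC on 3 and 0 of 7. Of the 7 markers high in Cumulus, 1 was higher in TSA(–) than in IVF by at least 1.5, but no marker of this list was a member. The part of leukocyte RNA in the results was not tested. Oocyte markers summed to 1.15 to 2.11 in Cumulus and to 2318 to 3830 in OC. Spic itself was at 1.13 to 1.79 in embryos given 1.0 mg/ml and at 1.63 to 2.50 in TSA(–), and whether the injected mRNA holds the probed part is not given in the sources used here.

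Most probes that were high in Cumulus were not members. Over all 2774 probes that were high in Cumulus, the median TSA(–) minus IVF difference was only 0.40, and 959 of them were lower in TSA(–) than in IVF. The median level of the 200 members ranged from -6.63 to -5.59 across OC arrays, from -5.43 to -3.79 across IVF arrays and from -2.14 to -1.67 across TSA(–) arrays. It ranged from -2.39 to -1.96 in TSA(+), from -2.16 to -1.90 and from -2.26 to -2.01 in embryos given 1.0 and 0.1 mg/ml Spi-C mRNA, and from 1.09 to 1.19 in Cumulus. Thus each array of every SCNT group lay above each IVF array and below each Cumulus array, and IVF arrays spread more widely than any SCNT group. Members had to be lower in IVF than in TSA(–) and in Cumulus, so that this order leans on the choice. Many of them were also dim in IVF.

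**Figure D1:**
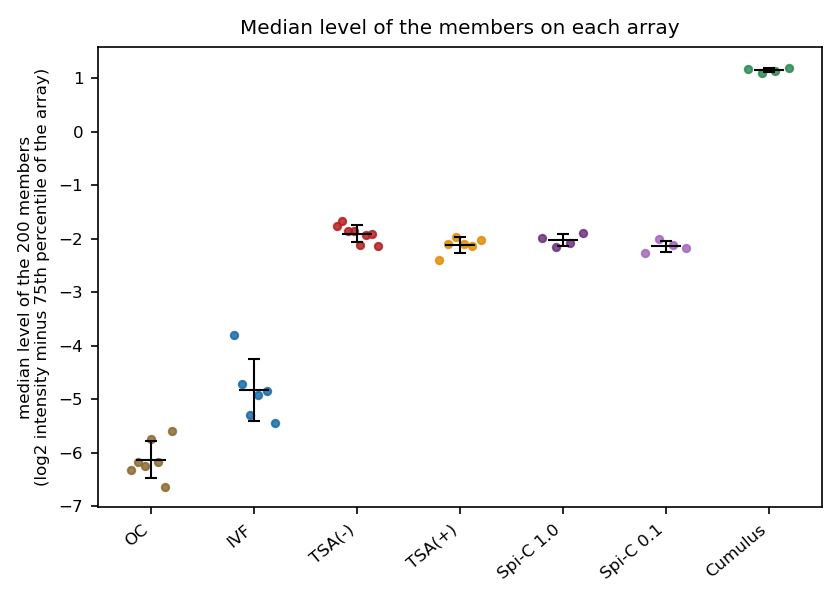
Median level of the 200 members (log2 intensity minus the 75th percentile of the array) on each array, by group; each point is 1 array and the black bar is the mean with its SD. The 4 SCNT groups lie between -2.39 and -1.67, above all IVF arrays and below all Cumulus arrays; OC, IVF, TSA(–) and Cumulus arrays were used to choose the members.

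The median member was 3.03 higher in TSA(–) than in IVF and 5.79 higher in Cumulus than in IVF. In TSA(–) it stood at 15.2% of its scaled intensity in Cumulus. This share ran from 0.0371% to 358.6%, with 8 members under 1%, 66 from 1 to 10%, 90 from 10 to 50%, 29 from 50 to 100% and 7 at 100% or more. The members just inside the limit were Bcl11a (2.32), Adh7 (2.32) and Mgst2 (2.31), and those just outside were Serpinb9 (2.29), Med14 (2.28) and a second probe of Slc7a6 (2.28).

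**Figure D2:**
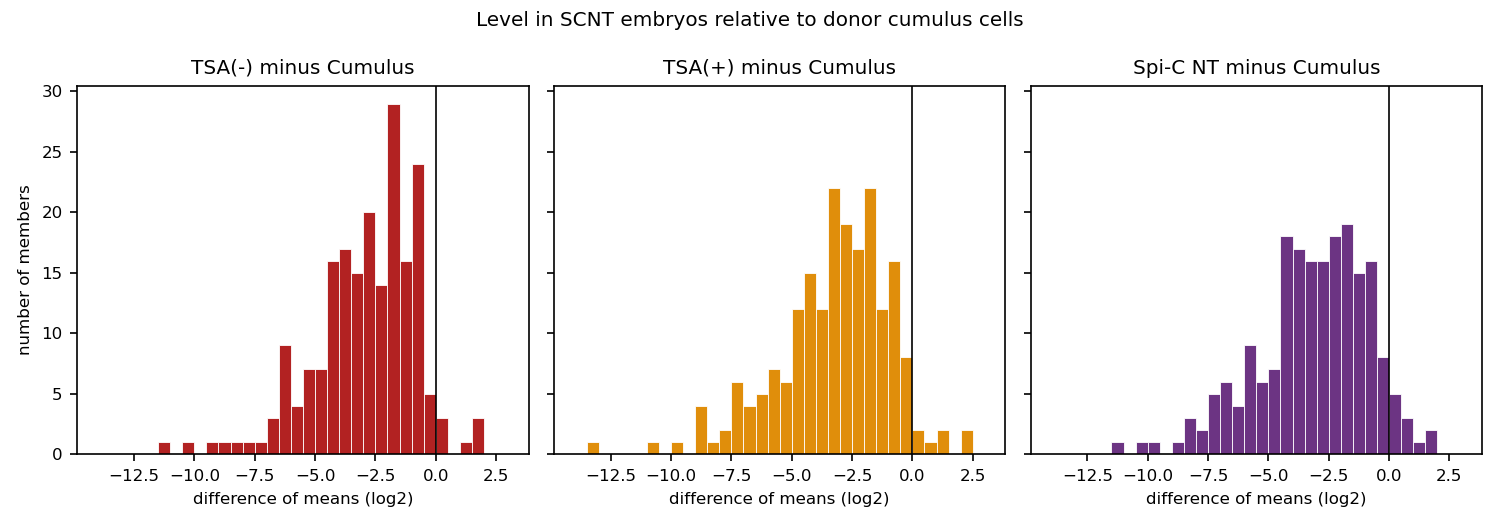
Number of members by their mean level in TSA(–), TSA(+) and Spi-C NT embryos minus that in Cumulus (log2). In all 3 panels most members lie left of 0, with 193 of 200 below Cumulus in TSA(–), 193 in TSA(+) and 189 in Spi-C NT.

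Many members were dim in the embryos and oocytes they were compared with. In OC, 73 members were well above background on no array. In IVF, 92 members were well above background on all 6 arrays, 105 on some and 3 on none, and 56 members on 3 arrays or fewer. For the 3 on none only a lower bound can be given, the mean of the bright group over a mean across IVF arrays. Each IVF array entered with the dimmest signal that was well above background on it, or with the probe's own level where that was higher. By this bound Spi-C NT was at least 9.32-fold higher than IVF for a probe of Tia1, at least 3.73-fold for TC1605825 and at least 2.76-fold for Dennd2d, a regulator of Rab proteins. OC and IVF did not differ in 1 direction, since 49 members were higher in IVF than in OC by at least 1.5 and 26 were lower by as much. For 4 members, XM_109868, Tial1, Acyp2 and AK046859, the level in OC was above that in TSA(–). Signal in OC was not confined to these, since 28 members were well above background on all OC arrays and 99 on some. For any member with signal in OC, RNA of the recipient oocyte cannot be told apart from donor RNA.

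With all arrays, the largest TSA(–) minus IVF difference was that of Ripk3, on chromosome 14, a kinase that drives necroptosis. Ripk3 ranged from 1.00 to 2.29 (median 1.79) in TSA(–) against -9.32 to -2.23 (median -3.87) in IVF and from -8.02 to -6.52 (median -7.16) in OC. Cumulus arrays were at -0.55, -0.50, 0.57 and -0.15, below every TSA(–) array. The difference from IVF was 6.02, and no IVF array reached the lowest TSA(–) array. It leaned on IVF replicate 6, at -9.32, without which Ripk3 stood at 5.03 and Rhox5 had the largest difference, 5.37; without any other IVF array Ripk3 stayed first.

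Further members lay at or above their donor-cell level. Stc2, on chromosome 11, which codes for the secreted glycoprotein stanniocalcin 2, ranged from 0.83 to 1.93 (median 1.48) in TSA(–) against -4.86 to -2.83 (median -3.42) in IVF. Its Cumulus arrays were at -0.36, -0.44, 0.77 and -0.39, so that TSA(–) stood at 296.7% of Cumulus. Slc7a6, on chromosome 8, which codes for a carrier of cationic and neutral amino acids, ranged from 0.80 to 1.56 in TSA(–) against -3.85 to -2.08 in IVF, and stood at 240.4% of Cumulus. P2ry2, a nucleotide receptor, ranged from -3.14 to -0.66 in TSA(–) against -9.15 to -3.84 in IVF, with 4 of 6 IVF arrays well above background, and Hacl1, a peroxisomal lyase, stood at 95.4% of Cumulus. AY214462 and AK082305, also above Cumulus, had no symbol here. Every TSA(–) array lay above every Cumulus array for 3 members, and every Cumulus array above every TSA(–) array for 152. Members had to be high in Cumulus, so that the second count is favoured by the choice, and neither count was set beside all probes.

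The 250 bases before the start of 4 members are shown because these genes had the largest difference (Ripk3), exceeded the donor level (Stc2), lie on the X chromosome (Rhox5) or gave a bright signal in SCNT embryos (Slc38a2). Sequences are from RefSeq, build GRCm38.p6, written 5′ to 3′ on the gene's strand, with matches on either strand in capitals. The letters searched were TATAAA for the TATA box, CCAAT for the box of that name, GGGCGG for the GC box, TGANTCA for the AP-1 site, AAGGTCA for a site bound by orphan nuclear receptors such as NR5A proteins and TGACGTCA for the cyclic AMP response element. They are chr14:55788858-55789107 (minus strand), chr11:31370062-31370311 (minus), chrX:37754358-37754607 (plus) and chr15:96699729-96699978 (minus).
Ripk3: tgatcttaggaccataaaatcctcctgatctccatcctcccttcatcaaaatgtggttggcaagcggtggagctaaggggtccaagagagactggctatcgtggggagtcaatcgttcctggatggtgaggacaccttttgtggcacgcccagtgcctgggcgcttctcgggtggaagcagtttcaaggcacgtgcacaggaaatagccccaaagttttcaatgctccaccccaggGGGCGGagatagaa
Stc2: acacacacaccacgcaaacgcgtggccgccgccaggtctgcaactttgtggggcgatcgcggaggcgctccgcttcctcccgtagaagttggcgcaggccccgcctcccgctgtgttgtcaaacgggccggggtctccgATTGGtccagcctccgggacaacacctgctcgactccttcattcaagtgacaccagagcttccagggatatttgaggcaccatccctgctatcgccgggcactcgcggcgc
Rhox5: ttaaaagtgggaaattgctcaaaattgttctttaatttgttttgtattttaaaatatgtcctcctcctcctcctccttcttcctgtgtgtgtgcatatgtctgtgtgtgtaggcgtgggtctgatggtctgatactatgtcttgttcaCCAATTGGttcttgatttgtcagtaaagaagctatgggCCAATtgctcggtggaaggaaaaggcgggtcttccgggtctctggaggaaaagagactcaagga
Slc38a2: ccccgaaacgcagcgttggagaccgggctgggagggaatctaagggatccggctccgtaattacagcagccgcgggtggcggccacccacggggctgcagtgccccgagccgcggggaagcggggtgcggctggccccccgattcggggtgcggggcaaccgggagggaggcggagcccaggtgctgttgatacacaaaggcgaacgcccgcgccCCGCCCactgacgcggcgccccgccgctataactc

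The Ripk3 and Slc38a2 windows each held 1 GC box (GGGCGG), that of Stc2 held 1 CCAAT box, and that of Rhox5 held 3 CCAAT matches, of which a pair overlaps on opposite strands. CpG dinucleotides numbered 8 for Ripk3, 24 for Stc2, 4 for Rhox5 and 30 for Slc38a2. RefSeq windows were available for 86 of the 121 member genes, 111 windows in all. The GC box was in 53.15% of them, against 32.74% of all 32851 windows, 47.23% of windows of genes on the array and 51.69% of windows of genes high in Cumulus. TATAAA was in 8.11% against 12.37% of all windows, 10.64% of windows of genes on the array and 9.24% of windows of genes high in Cumulus. CCAAT was in 30.63% against 33.85% of all windows, TGANTCA, the AP-1 site, in 8.11% against 6.75%, AAGGTCA in 5.41% against 4.08% and the cyclic AMP response element TGACGTCA in 1.80% against 1.55%. A match describes these letters only. The median number of CpG was 11 in the members' windows and 12 in those of genes on the array.

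Rhox5, a reproductive homeobox gene of the X chromosome, had 5 of 6 IVF arrays well above background. It ranged from -1.20 to 2.46 (median 1.54) in TSA(–) against -6.95 to -1.04 (median -3.54) in IVF, so that the lowest TSA(–) array lay within the IVF range. X-linked genes made up 7 of the 121 member genes (5.79%) and 3.51% of the genes on the array. Mdfic, which codes for an inhibitor of MyoD-family factors, ranged from -3.01 to -0.02 in TSA(–) against -8.81 to -3.80 in IVF, and its 2 member probes gave differences of 5.27 and 3.76. For Tia1, which codes for a protein of stress granules, 3 member probes gave differences between 2.57 and 4.88, and the probe with the largest was well above background on 1 of 6 IVF arrays.

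Other genes among the 20 with the largest TSA(–) minus IVF differences lay between 3.96 and 4.87. They included Rhod and Rab7b (small GTPases of vesicle traffic), Arhgdib and Fgd5 (regulators of small GTPases), Grb14 (an adaptor that restrains insulin signalling), Dram1 and Aifm2 (p53-responsive genes of autophagy and of ferroptosis suppression), Eya2 (a transcriptional coactivator), Hacl1 (a peroxisomal lyase), Slc7a6, Slc9b2 and Slc38a5 (solute carriers), Nxf3 (an RNA export factor) and Sh3bgr. Grb14 was well above background on all 7 OC arrays too, with levels of -1.50 to -0.07 in OC, -6.38 to -3.38 in IVF, -1.10 to 0.90 in TSA(–) and 4.57 to 4.83 in Cumulus.

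Among members with a symbol, the 5 genes taken for their bright signal in TSA(–), which also depends on the probe, were Ephx2 (a soluble epoxide hydrolase), Ifi27 (an interferon-inducible gene), Slc38a2 (a sodium-coupled neutral amino acid carrier), Ripk3 and Nmi (a partner of Myc and STAT proteins). Ephx2 ranged from 3.08 to 3.93 in TSA(–) against 0.37 to 2.76 in IVF and from 8.26 to 8.71 in Cumulus, where it stood more than 4 log2 units above every SCNT array. Ifi27 ranged from 3.04 to 3.85 in TSA(–) against 0.18 to 2.21 in IVF and from 6.36 to 7.23 in Cumulus. Slc38a2 ranged from 1.94 to 2.79 in TSA(–) against -0.81 to -0.12 in IVF, and Nmi from 1.02 to 2.28 and from -2.80 to -1.20. In each of these the TSA(–) and IVF ranges did not overlap. Another probe of Slc38a2, which was no member, gave a TSA(–) minus IVF difference of 1.08, under 1.5.

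**Figure D3:**
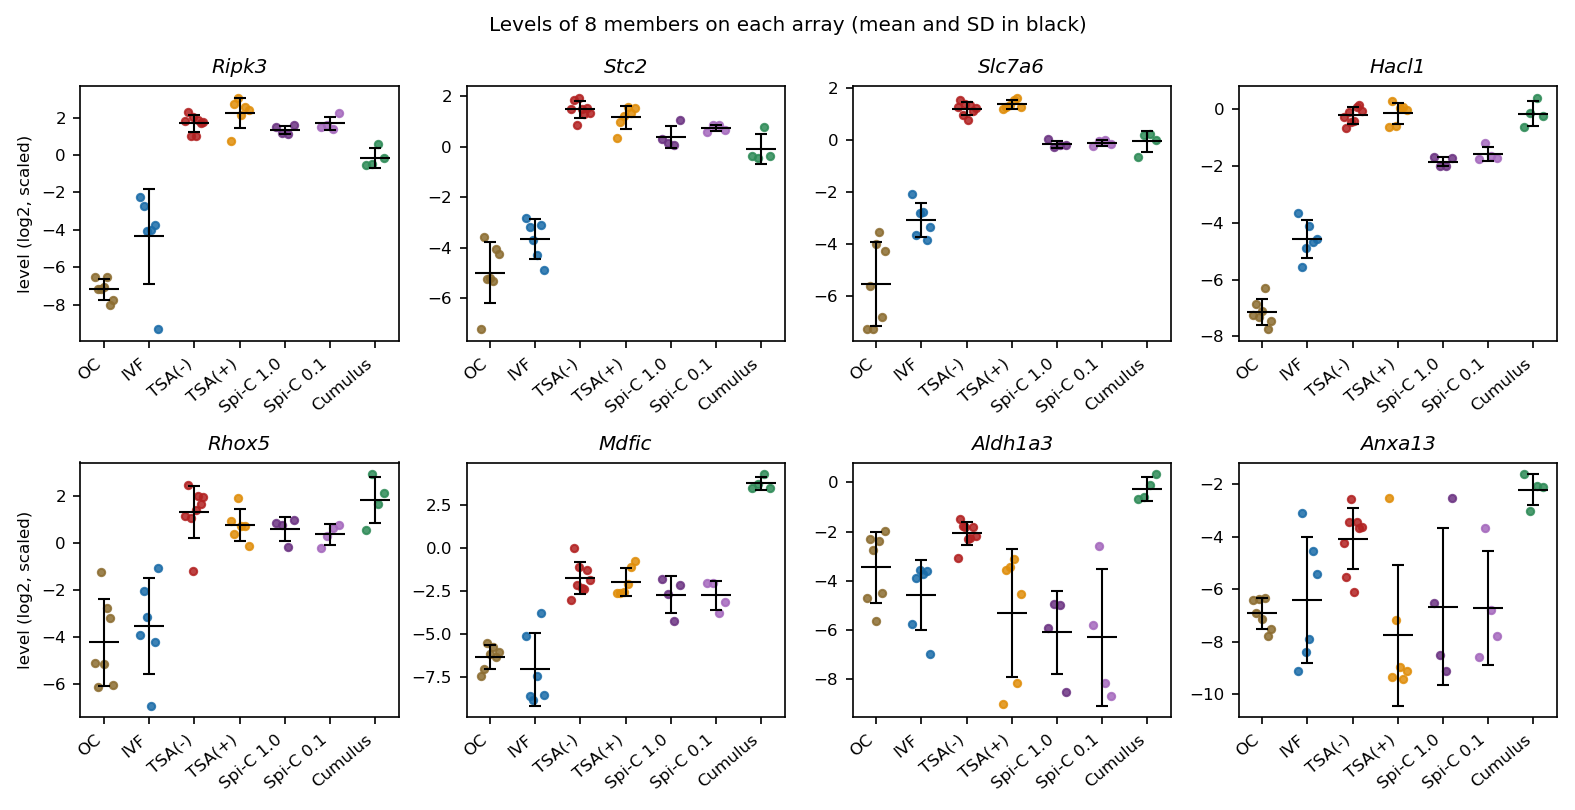
Level of 8 members (log2 intensity minus the 75th percentile of the array) on each array, by group; points are arrays and black bars are the mean and SD. Ripk3, Stc2 and Slc7a6 were above their Cumulus level in TSA(–), Hacl1 (95.4% of it) and Rhox5 (70.2%) overlapped the Cumulus arrays and Mdfic lay far below them (2.22%), while Aldh1a3 and Anxa13 scattered more widely in TSA(+) and Spi-C NT than in TSA(–). Members had to be well above background on every TSA(–) array, with no such condition on the other SCNT arrays, so that this wider scatter is favoured by the choice.

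At the other end, 8 members kept under 1% of the donor level in TSA(–), among them Akr1c18 (a hydroxysteroid dehydrogenase that inactivates progesterone), Pik3c2g, Sfxn3, Stat5b, Mgp and Ltbp1. Akr1c18 ranged from 7.15 to 7.68 in Cumulus and from -5.89 to -2.04 in TSA(–), or 0.0371%. One IVF array read 0.97 for Akr1c18 and the other 5 lay between -9.52 and -8.78, and its difference between TSA(–) and IVF was 3.41. Vegfa, the angiogenic growth factor, ranged from 1.03 to 1.79 in TSA(–) against -2.22 to -0.84 in IVF and from 5.13 to 5.98 in Cumulus. Both other probes of Vegfa gave TSA(–) minus IVF differences of 1.02 and 1.36, under the limit. Among the 121 genes, 44 had at least 1 probe that was no member, and for 28 of these such a probe fell short of 1.5.

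Few genes that define the cumulus cell were members, as was the case for probes high in Cumulus as a whole, of which 7.21% were members and 20.2% were higher in TSA(–) than in IVF by at least 1.5. Of 18 measured genes of cumulus expansion and the ovulatory response, 14 were high in Cumulus, 2 of these were higher in TSA(–) than in IVF by at least 1.5, and 1, Snap25, was a member. The summed linear level of this list was 144.0 to 203.2 in Cumulus, 0.749 to 1.26 in IVF and 0.681 to 1.22 in TSA(–). Steroidogenesis and the gonadotropin response gave 13 of 20 genes high in Cumulus, 3 of them higher in TSA(–) by that limit and 1 member, Akr1c18. Of 33 genes of extracellular matrix and basement membrane 17 were high in Cumulus and 2 higher in TSA(–) by the limit, and of 34 genes of the actin cytoskeleton and adhesion 19 and 2. None of the 13 immediate early genes and none of the 4 genes of class I antigen presentation and interferon response that were high in Cumulus passed the limit. Imprinted genes had 4 of 30 high in Cumulus, 2 past the limit and no member, the secreted ligands had 15 of 30, 3 and 1 (Vegfa), and the granulosa and cumulus identity list had 7 of 20, 1 and none. Against IVF, 2 genes of the cumulus expansion list were called higher and 2 lower in TSA(+), none and 3 of the steroidogenesis list, and 1 and 5 of the immediate early genes, beside 7.87% of all probes called higher and 11.1% called lower. In Spi-C NT these counts were 1 and 3, 4 and 4, and 0 and 5, beside 18.6% and 17.4% of all probes. The lists were not tested against these shares.

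TSA(+) arrays were not used to choose the members, whereas the IVF arrays were. Members had to be low on these IVF arrays, so that the next counts and differences lean towards TSA(+) above IVF. In TSA(+), 155 of 200 members were higher than in IVF and none lower (limma, Benjamini-Hochberg adjusted p under 0.01), beside 7.87% of all probes called higher and 11.1% called lower. The median difference over the members was 2.84, and over all probes tested -0.23. Every TSA(+) array lay above every IVF array for 129 members, beside 8.39% of all probes. Within the scan days that held both groups the median was 3.04, 3.36 and 2.08, from 2 TSA(+) arrays on each day against 3, 1 and 1 IVF arrays. Among the other probes high in Cumulus the median was 0.24, with 392 of 2550 tested called higher and 119 lower.

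Ripk3 rose by 6.60 ± 0.69 (log2 difference ± SE, limma adjusted p 2.08e-08) in TSA(+) relative to IVF, with TSA(+) arrays from 0.75 to 3.04. Stc2 was higher by 4.81 ± 0.42 (limma adjusted p 9.02e-10) and Slc7a6 by 4.47 ± 0.48 (3.37e-08). Of the 28 genes taken for their difference, signal, closeness to Cumulus or place in a gene list, all passed the test in TSA(+) except Akr1c18 (1.53 ± 1.39, limma adjusted p 0.446). The mean was below that of IVF for 4 members, none of them past the test, namely Anxa13 (-1.35 ± 0.96, limma adjusted p 0.315), Aldh1a3 (-0.72 ± 0.83, limma adjusted p 0.564), AK031940 and AK053595.

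The OC and Cumulus arrays also helped to choose the members, which had to be high in Cumulus and lower in OC, so that the next counts lean towards TSA(+) above OC and below Cumulus and are given with that limit. Relative to oocytes, 157 members were higher in TSA(+) and none lower, beside 22.0% and 49.3% of all probes, with a median of 3.28 over members and -1.21 over all probes. With a normexp background correction, which damps dim signals, 92 were higher and 31 lower, beside 15.3% and 72.2% of all probes, and the median was 0.53 over members and -1.54 over all probes. Relative to Cumulus, 148 members were lower and 1 higher, beside 25.4% and 28.3% of all probes, with a median of -2.90. The exception was Ripk3, which was 2.42 ± 0.77 higher in TSA(+) than in Cumulus (limma adjusted p 0.00732), and this call was lost when any 1 of 8 of the 10 arrays (TSA(+) replicates 2 to 6, Cumulus replicates 1, 2 and 4) was left out, with a limma adjusted p of up to 0.0225, and when median centring replaced the percentile scaling (0.0438). Tukey's test did not call Ripk3 higher than Cumulus either.

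Few members passed the test between TSA(+) and TSA(–). With limma 1 member was called, AK031940, which has no symbol here and was named after its values were seen, beside 0.142% of all probes. The member was lower, and by direction 0.0506% of all probes were called higher and 0.0911% lower. At an adjusted p under 0.05, 3 members were called beside 1.25% of all probes, with Tukey's test 3 beside 1.97% and with normexp 3 beside 0.939%. An unadjusted p under 0.05 was found for 25 of 200 members and 6374 of 39517 probes. AK031940 fell by 3.15 ± 0.49 (limma adjusted p 0.00163), from a range of -5.55 to -3.75 in TSA(–) to -9.34 to -6.17 in TSA(+), where 1 of 6 arrays was well above background, and the adjusted p was 0.0203 when both groups were fitted alone. The median member difference was -0.12, with 80 members higher and 120 lower, and the median over all probes was -0.10. Because members were chosen for high levels on the TSA(–) arrays, this contrast leans towards lower values in TSA(+). Within the scan days shared by both groups the median was 0.00 on the first, 0.00 on the second and -0.38 on the third, with 100, 101 and 63 of 200 members higher in TSA(+). Each day held 2 TSA(+) arrays, against 2 TSA(–) arrays on the first and only 1 on the second and on the third.

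Aldh1a3, a retinaldehyde dehydrogenase that makes retinoic acid, ranged from -3.05 to -1.48 in TSA(–) and from -9.00 to -3.12 in TSA(+), with 4 of 6 TSA(+) arrays well above background. Its difference of -3.22 ± 0.78 missed the threshold (limma adjusted p 0.0362), as did that of Anxa13, an annexin, at -3.68 ± 0.90 (limma adjusted p 0.0376). The ranges of Aldh1a3 did not overlap. Those of Anxa13 did, through 1 TSA(+) array at -2.53. Both genes were chosen for their levels on these TSA(–) arrays, so that a lower mean in TSA(+) is favoured by the choice. In Spi-C NT Aldh1a3 was at -5.92, -4.94, -5.00 and -8.50 for 1.0 mg/ml and at -5.79, -2.56, -8.16 and -8.66 for 0.1 mg/ml.

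**Figure D4:**
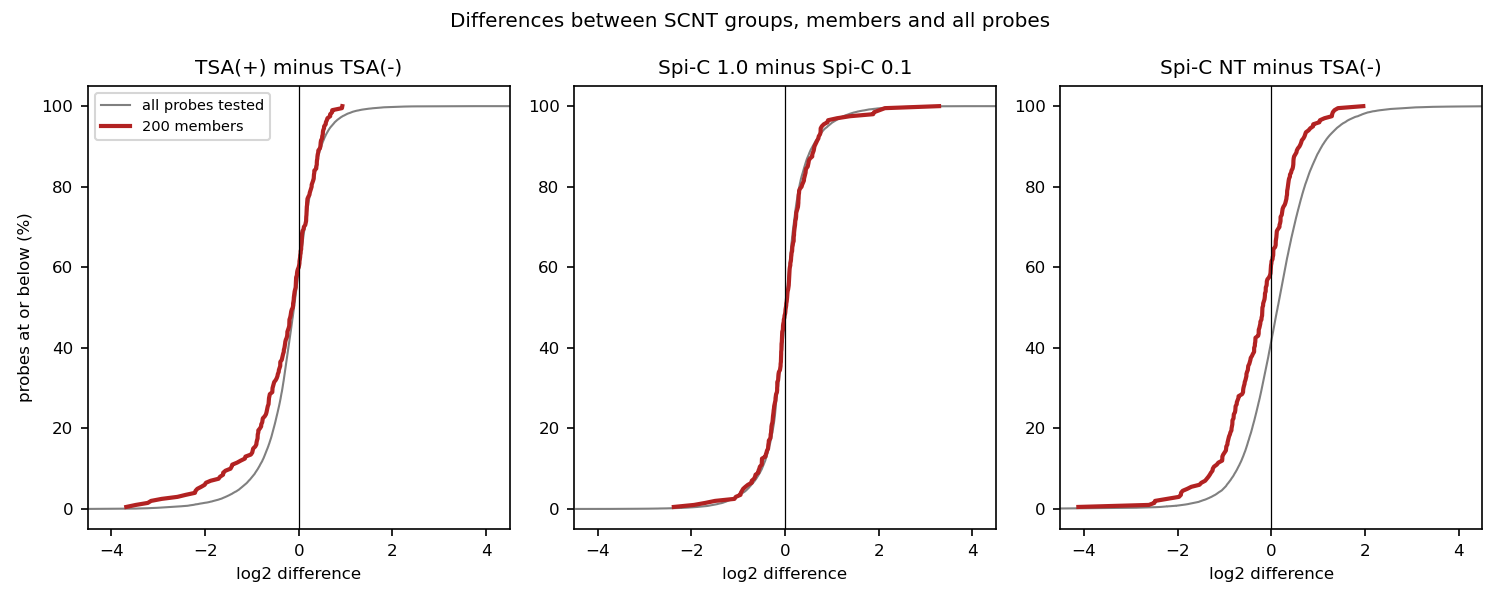
Share of probes (%) at or below a given log2 difference for TSA(+) minus TSA(–), Spi-C 1.0 minus 0.1 mg/ml and Spi-C NT minus TSA(–), for all probes tested (grey) and the 200 members (red). The members' medians were -0.12, 0.02 and -0.18, against -0.10, 0.02 and 0.14 over all probes.

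Spi-C NT embryos, which the choice of members did not use either, were compared with the same IVF arrays. Since members had to be low on those arrays, these counts too lean towards higher than IVF. Averaged over both concentrations, 177 of 200 were higher than in IVF and none lower, beside 18.6% and 17.4% of all probes, and the median was 2.88 over members and 0.12 over all probes tested. The 1.0 mg/ml arrays lay above every IVF array for 138 members, beside 15.0% of all probes, and the 0.1 mg/ml arrays for 142, beside 14.7%. Ripk3 was at 1.47, 1.18, 1.10 and 1.60 with 1.0 mg/ml and at 1.49, 1.63, 1.40 and 2.22 with 0.1 mg/ml, above every Cumulus array, and 5.85 ± 0.67 above IVF (limma adjusted p 7.45e-08). The median member stood at 13.4% of Cumulus in TSA(+) and 13.2% in Spi-C NT.

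The doses of Spi-C mRNA, which the choice of members did not use, were compared next. No member was called between 1.0 and 0.1 mg/ml with limma, with Tukey's test or with the slide as a block, beside 0.00506% of all probes with limma, all higher and 0.00% lower, and 0.134% with Tukey's test. With limma 7 members and 1625 of 39517 probes had an unadjusted p under 0.05. The median difference was 0.02, and 0.05 and -4e-04 within the 2 slides, each of which held 2 arrays of either dose. The widest member differences were 3.29 ± 1.20 for Pik3c2g, a class II phosphoinositide 3-kinase, and -2.37 ± 1.08 for AK135586 (limma adjusted p of 1 each).

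Against TSA(–), 17 members were called in Spi-C NT, 4 higher and 13 lower, beside 11.7% and 9.07% of all probes (20.8% in either direction), and the choice of members again leans towards lower values. At an adjusted p under 0.05, 28 members were called, beside 31.4% of all probes, and with normexp 51, beside 43.0%. The median was -0.18 over members and 0.14 over all probes. Aldh1a3 was lower by the most, -4.12 ± 0.88 (limma adjusted p 0.000781), followed among named genes by Adh7, an alcohol dehydrogenase that also acts on retinol (-2.23 ± 0.51, limma adjusted p 0.00151), St3gal4, a sialyltransferase (-1.97 ± 0.52, 0.00524), and Gramd1a, a sterol transfer protein (-1.93 ± 0.45, 0.00182). Of the members above their donor level, 2 were also lower, Slc7a6 by -1.34 ± 0.18 (limma adjusted p 2.01e-06) and Stc2 by -0.90 ± 0.24 (0.00562). Slc7a6 was at -0.28 to 0.03 and -0.21 to 0.01 in the 2 doses against 0.80 to 1.56 in TSA(–), so that the ranges did not overlap. Hacl1 (-1.49 ± 0.20, limma adjusted p 2.67e-06), 1 of 2 probes of the tissue factor gene F3 (-1.41 ± 0.35, 0.00279) and the receptor tyrosine kinase Axl (-1.38 ± 0.32, 0.00177) were lower as well. Higher were N6amt1, a methyltransferase (1.35 ± 0.28, 0.000484), Vps33a, of lysosomal fusion (0.80 ± 0.20, 0.00308), Cox17, a copper chaperone of cytochrome oxidase (0.65 ± 0.17, 0.00384), and AK029051. Stc2 lost its call without any 1 of 7 arrays, St3gal4 and AK029051 without any 1 of 6 and Cox17 without 1 (0.1 mg/ml replicate 3), and Vps33a, Cox17 and AK029051 lost theirs with arrays centred on their median. Apart from Slc7a6, Stc2 and Hacl1 these genes were named after their values were seen. Spi-C arrays and TSA(–) arrays were scanned on different scanner models, which cannot be told apart from the injection.

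Grouped by function after the members were known, 93 of the 121 genes fell into 12 groups, and in each of them most genes were called higher than IVF in TSA(+) or Spi-C NT. The figures of each group below are medians of the TSA(–) minus IVF difference, a description, followed by the counts called higher than IVF in TSA(+) and in Spi-C NT. Each gene is given by its probe with the largest difference, so that the figures describe probes, and other probes of a gene can differ. Such probes are listed below for some groups only. They fell under 1.5 in other groups too, as for Slc38a2 and Rhod (1.08 each), Stat5b (1.10), Tial1 (0.25) and St3gal4 (0.61). Of the 44 member genes with a probe that was no member, 28 had one under 1.5 and 16 had all at 1.5 or more. Over all 200 members these counts were 155 and 177, and over all probes 7.87% and 18.6%, and no group was tested against the other members. The IVF arrays helped to choose the members, so that all these counts lean towards higher than IVF.

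Cell death, inflammatory and interferon signalling held 11 genes with a median of 3.33, and 10 and 11 of them were higher than IVF in TSA(+) and in Spi-C NT. They include Ripk3, the tumour necrosis factor receptor Tnfrsf1a, Ikbkg and Sharpin of the NF-κB pathway, the interferon receptor chain Ifnar2, Nmi, Ifi27 and Slfn2. Amino acid and ion transport held 7 genes with a median of 3.75, and all 7 were called in both, namely Slc7a6, Slc7a3, Slc38a2, Slc38a5, Slc9b2, Sfxn3 and the cation channel Trpm4. Small GTPases and their regulators held 8 genes with a median of 3.83, of which 7 and 8 were called, Rhod, Ralb, Rab7b, Arhgdib and Fgd5 among them.

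The 10 secreted proteins had a median of 3.24, with 5 called in TSA(+) and 8 in Spi-C NT. Besides Stc2, F3 and Vegfa they included the complement protease C1ra, the matrix Gla protein Mgp and the chemokine Ccl24. The 7 receptors and surface proteins (Axl, S1pr2, P2ry2, Pvr, Smo, Itga11 and Cd302) had a median of 2.88, with 6 called in each. Probes that were no members gave -0.29 for Smo, 0.47 for S1pr2, 1.12 for P2ry2 and 0.64 and 1.33 for Pvr, all under 1.5. Axl, Itga11 and Cd302 had no such probe.

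Detoxification and lipid or retinoid metabolism held 11 genes with a median of 2.75, with 7 and 8 called. It joined the epoxide hydrolases Ephx1 and Ephx2, the alcohol and aldehyde dehydrogenases Adh1, Adh7 and Aldh1a3, the glutathione enzymes Gstm1 and Mgst2, Hpgd, which degrades prostaglandins, Akr1c18, Pon2 and Hacl1. It held the lowest TSA(+) minus IVF difference of any group, -0.72 for Aldh1a3.

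Transcription factors and coregulators numbered 11 with a median of 2.78, 9 and 10 of them called, and included Rhox5, Eya2, Stat5b, Mkx, Bcl11a, the cyclic AMP responsive Crem and the Max partner Mxi1. RNA-binding and RNA-processing proteins (Tia1, Tial1, Mbnl2, Edc3 and Nxf3) had a median of 3.80, with 5 of 5 and 4 of 5 called. The 5 kinases and signalling adaptors, Grb14, Lrrk2, Nek6, Prkaa1 and Pik3c2g, had a median of 3.60 and lay far below the donor level, at a median of 3.46% of Cumulus, with 4 and 5 called. Probes that were no members gave 0.66 and 0.72 for Nek6, 0.13 for Prkaa1 and -0.05 for Pik3c2g, all under 1.5. Grb14 and Lrrk2 had no such probe. Of the 6 genes of mitochondrial, haem and cofactor metabolism, Fech and Cox17 among them, all were called in both, and of 9 genes of vesicle traffic, cilia and cytoskeleton 8 were called in each. Glycosylation and sulphation (Galnt7, Chst8 and St3gal4) had 2 of 3 called in each.

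**Figure D5:**
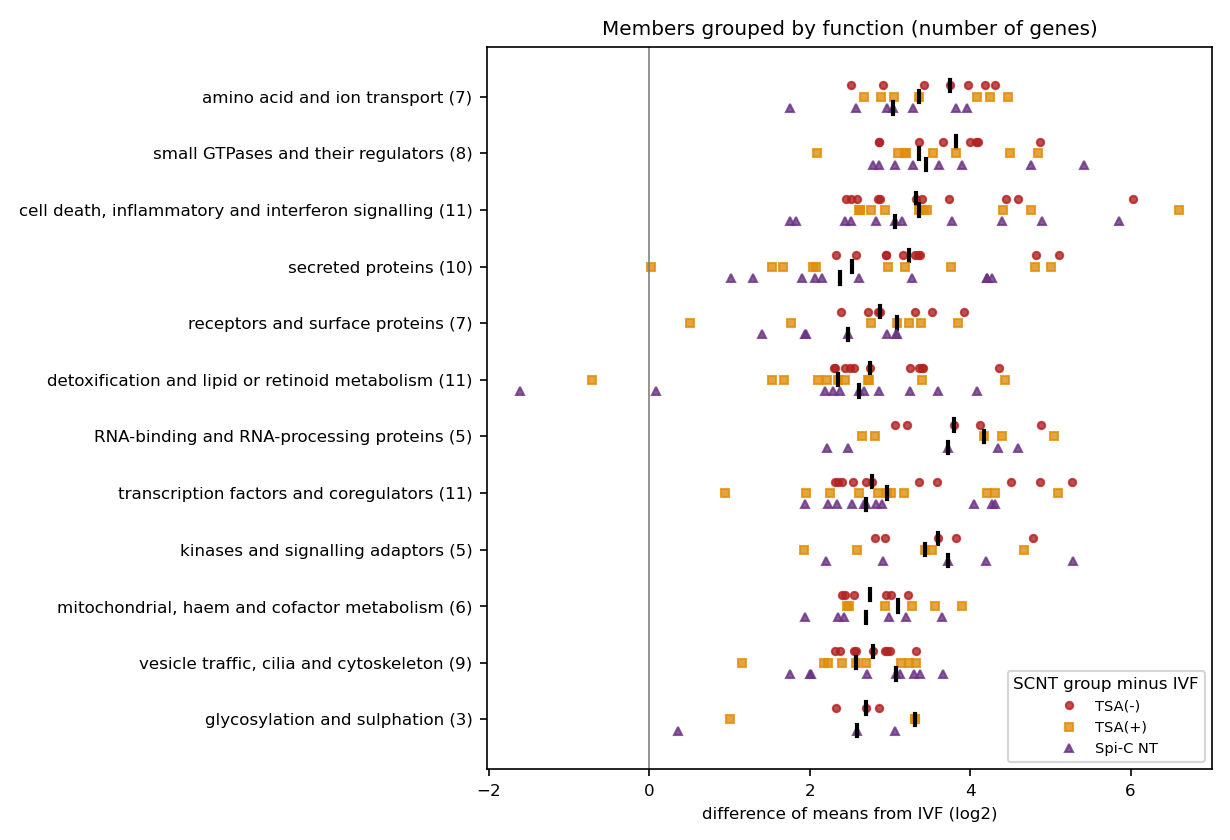
Difference of mean level from IVF (log2) for 93 member genes in 12 function groups, in TSA(–), TSA(+) and Spi-C NT; each symbol is 1 gene and short black lines are group medians. The TSA(–) and IVF values helped to choose the genes, which favours differences above 0. In TSA(+) and Spi-C NT all genes but Aldh1a3 lie above 0 in both.

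The 64 members without a symbol had a median TSA(–) minus IVF difference of 3.11 against 2.98 for the 121 genes. Of the 64, 41 were higher than IVF in TSA(+) and 54 in Spi-C NT, beside 7.87% and 18.6% of all probes. Their median share of the Cumulus level was 26.7%, against 14.7% for the named genes, a difference that was not tested.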

How the data were processed

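RNA was hybridised to 1-colour Agilent whole mouse genome arrays, 39 in all, and the authors scanned them with Agilent Feature Extraction (version 9.5.3.1 per the labels, 10.5.1.1 per the file headers of Cumulus and Spi-C arrays). The deposited scanner files hold background-corrected intensity per spot. The deposited table of processed log2 values equals the same intensities scaled to each array's 75th percentile and centred on each probe's median, and served as an alternative. Outlier-marked spots and control spots were left out, log2 intensity minus the array's 75th percentile was taken, and spots of a probe were averaged.

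The 39517 probes with an intensity of at least 10 on 1 IVF or SCNT array were tested with limma 3.58.1 in R 4.3.3 (lmFit and eBayes, tested on simulated data) with Benjamini-Hochberg adjustment and a threshold of 0.01. OC, IVF, TSA(–), TSA(+) and Cumulus shared 1 fit, and IVF, TSA(–), TSA(+) and the Spi-C groups another. The labels do not say that arrays of a group came from separate cultures, so p-values measure the spread between arrays, whose number limits the precision. Members and gene lists were chosen with earlier results of these data known. Genes were named by size of the TSA(–) minus IVF difference (20), signal in TSA(–) (5), closeness to Cumulus (5), place in a list, calls and place at the limit, with the probe of the largest difference for each symbol. Gene lists used the probe with the highest mean level. Alternatives were quantile, median and normexp (offset 50) processing, the authors' values, other filters, thresholds and fits, Tukey's test, blocks and leaving out each array. The scan day and slide values and the largest difference without each IVF array were added after seeing the data. Results for a few genes are not reported here.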

Additional observations from a re-analysis of the deposited data

Results flagged for a closer look

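In all, 119 groups of arrays were examined, for single genes and for the median over the members. Of these, 10, all for single genes, held an array whose gap to the nearest other, divided by the range of the group, was above Dixon's critical value, and chance gives about 1 in 20. In IVF these were Ripk3 (0.744, replicate 6 at -9.32), Akr1c18 (0.929, replicate 1 at 0.97) and Vegfa (0.626, replicate 5 at -0.84). In TSA(–) it was Rhox5 (0.621, replicate 4 at -1.20), and in TSA(+) Anxa13 (0.677, replicate 1 at -2.53). In OC they were Nmi (0.67, replicate 7 at -5.04) and Vegfa (0.591, replicate 2 at -3.84). The others were Stc2 in Cumulus (0.934, replicate 3 at 0.77), Akr1c18 with 1.0 mg/ml Spi-C mRNA (0.837, replicate 1 at -2.44) and Snap25 with 0.1 mg/ml (0.887, replicate 1 at -7.28).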

How the results depend on the processing

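Under normexp 143 probes met the criteria instead of 425, and 81 of the 200 largest were shared, against 175 with quantile normalization and 166 with median centring. Leaving out single arrays gave 412 (without IVF replicate 5) to 484 (without IVF replicate 1). Between TSA(+) and TSA(–), 3 members were called with normexp (0.939% of all probes), 3 at an adjusted p under 0.05, 3 with Tukey's test and 0 with the groups compared alone (limma; 40 members at an unadjusted p under 0.05), and 1 to 2 without single arrays (2 without TSA(+) replicate 1). Between Spi-C NT and TSA(–), 51 members were called with normexp, beside 43.0% of all probes, 28 at an adjusted p under 0.05, beside 31.4%, and 13 to 19 without single arrays. The median over members of TSA(+) minus IVF was 1.52 and of Spi-C NT minus IVF 1.43 with normexp, and that of TSA(+) minus TSA(–) was 0.06 with median centring. Leaving out single arrays gave 150 to 163 calls for TSA(+) against IVF, 151 to 156 against OC, 134 to 149 against Cumulus, 165 to 178 for Spi-C NT against IVF and 0 to 0 between the Spi-C doses. Snap25 in Spi-C NT minus IVF turned to -0.0063 with normexp. The cause of these shifts was not tested. With the replicate number as a block, 8 members, 0 of them higher, were called between Spi-C NT and TSA(–) instead of 17, 4 of them higher, while calls over all probes fell from 8213 to 5250 (13.3%). No other count of members called, in either direction together, moved by over 1.5 times, and over all probes the lower calls between TSA(+) and TSA(–) went from 36 to 58. The numbers did not pair the arrays, since in all 9 pairs of groups compared the correlations of same-numbered arrays' deviations ran from -0.087 to 0.065. No fit with scan day as a term could separate Cumulus or Spi-C arrays from the rest.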

Other observations

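Over the 8 TSA(–) arrays, deviations of members from their group mean were little related, with a median correlation of 0.0509 over pairs of members that share arrays. The 121 member genes lay on all autosomes and the X chromosome, with the most on chromosome 6 (12 genes), chromosome 3 (11 genes) and chromosomes 2 and 7 (10 genes each). The median over members of the SD among arrays was 1.17 in IVF, 0.84 in OC, 0.59 in TSA(–), 0.58 in TSA(+), 0.49 and 0.46 in the Spi-C groups at 1.0 and 0.1 mg/ml, and 0.36 in Cumulus.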
